A study of Rattus norvegicus albus with 6 samples.

Results

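Cultured hepatic stellate cells infected with a GFP adenovirus were compared with uninfected vehicle cultures. The comparison took the Ad.GFP array minus the mean of both vehicle arrays, gene by gene, and so rested on 3 of the 6 arrays of the series, for 10025 genes. The series comprised Ad.DKK-1 with its control Ad.GFP, the compound ICG-001 with its vehicle, and the compound FJ9 with its vehicle. Each array held RNA pooled from 3 to 4 rats, and no group had a second array.

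All cells were primary rat hepatic stellate cells that had been activated by 7 days of culture on plastic in low glucose medium with 10% fetal bovine serum. Ad.GFP cells were then given an adenovirus carrying green fluorescent protein at a multiplicity of infection of 200, for 24 h in medium with 5% serum and antibiotics, followed by 24 h without serum. Both vehicle cultures went without serum for 24 h, in the presence of the vehicle that matched 10 µM ICG-001 or 200 µM FJ9. Ad.GFP cells thus differed from vehicle cells in the virus, in the transgene, in the 24 h step at 5% serum, in the added time after day 7, in the absence of vehicle and in the pool of rats. These factors cannot be told apart. Solvent, promoter of GFP, and strain, sex and age of the rats: not given in the sources used here. No GFP or viral probe set was named in the platform annotation, so the infection label itself was not checked. Ad.DKK-1 cells shared the dose of virus and the serum schedule, and their values are set beside the others below; they also expressed DKK-1, a secreted Wnt inhibitor.

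Hepatic stellate cells are the vitamin A storing pericytes of the liver sinusoid, which on plastic turn into matrix-producing myofibroblasts. Adenovirus vectors enter through a surface receptor and integrins and deliver DNA to the nucleus, where infected cells can sense it and make type I interferon. Interferon acts through transcription factors that include STAT2 and IRF9 on a large family of antiviral genes. Serum and its withdrawal act on early response genes, on cell cycle genes and, through the actin cytoskeleton, on targets of the transcription factor SRF and the coactivator YAP.

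Stellate cell markers were high on all 3 arrays, as log2 RMA levels, the scale of all levels and differences below. The PDGF receptor gene Pdgfrb read 12.55 on Ad.GFP, 12.46 on the ICG-001 vehicle and 12.42 on the FJ9 vehicle. Lrat, the enzyme that esterifies retinol for storage, read 11.96, 11.46 and 10.52. Of 17 stellate markers past the level filter, 1 lay at least 1.5-fold from both vehicles, the pericyte gene Rgs5, which was higher. Over all genes, 3.44% lay above both vehicles and 3.63% below both. Of 22 hepatocyte markers measured, 6 passed the filter, and the median level of the list was 5.83 on Ad.GFP against 6.53 and 6.31. Of 20 macrophage and Kupffer cell markers, 6 passed, with list medians of 6.37, 6.49 and 6.44. Of 13 endothelial markers, 7 passed, with list medians of 6.21, 7.05 and 6.76. Esam and Robo4 were the 2 of them at least 1.5-fold below both vehicles, against 3.63% of all genes, and 0 were above. Flt1 read 9.66, 10.09 and 10.06. A level near 6 is low on these arrays, since the filter removed the lowest 30% of genes, up to a mean of 6.39.

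The Ad.GFP array differed from the vehicle mean by at least 1.5-fold for 1293 genes, or 12.9% of those tested, of which 642 were higher and 651 lower. The stricter count required 1.5-fold from each vehicle array in the same direction. It held 345 genes above both vehicles, or 3.44%, and 364 below both, or 3.63%. The vehicle arrays themselves lay at least 1.5-fold apart for 766 genes, or 7.64%. The SD of the differences over all genes was 0.40 for Ad.GFP against the vehicle mean and 0.44 against each vehicle, compared with 0.34 between the vehicles.

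A limma fit of the single Ad.GFP array against the vehicle arrays called 59 genes at a Benjamini-Hochberg adjusted p under 0.05, or 0.589% of those tested, 21 higher and 38 lower. Of these, 58 also passed 1.5-fold from both vehicles. Each SE below rests mostly on the trend of spread over all genes, with 8.99 prior degrees of freedom. The fit had 1 residual degree of freedom, from vehicle pools made for different compounds, and assumed that Ad.GFP arrays would vary as those pools do. Its count ran from 0 without an intensity trend in the variance to 636 after cyclic loess, so the calls depend on that choice. In what follows, "rose" and "fell" are used for these 59 genes; other genes are given by their values.

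The excess of lower values sat among weakly expressed genes. Among the 3342 genes of lowest mean level past the filter, 243 were below both vehicles and 175 above, and the median difference was -0.10. Among the 3341 of middle level, 80 were below and 135 above, with a median of 0.09. Among the 3342 of highest mean level, 41 were below and 35 above, with a median of 0.02. The lower quartile of all probe sets was 5.75 on Ad.GFP against 6.11 and 5.94 on the vehicles. Centring the arrays on their medians raised the median of all genes by 0.11, and the counts past both vehicles became 589 higher and 245 lower. The part of this offset in single low genes was not tested.

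**Figure D1:**
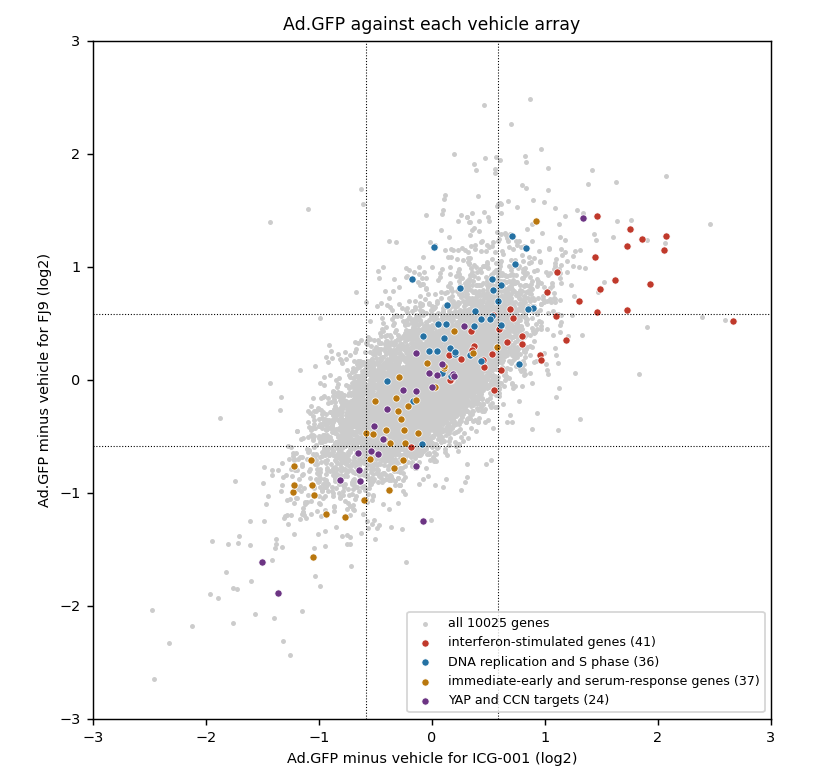
Difference of the Ad.GFP array from the ICG-001 vehicle (x axis) and from the FJ9 vehicle (y axis), both log2, with 1 point for each of 10025 genes and dotted lines at 1.5-fold. Of the interferon-stimulated genes (red), 16 of 41 lie past 1.5-fold on both axes at the upper right, and of the early response genes (ochre), 10 of 37 do so at the lower left.

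Interferon-stimulated genes formed the list with the highest median. Of 41 members past the level filter, 16 lay at least 1.5-fold above both vehicles and 0 below, against 3.44% of all genes higher, and 40 of 41 lay above the vehicle mean. The median difference was 0.59, against 0.02 over all genes. By limma, 2 members rose, Ifit1 and Oas1a. The 16 comprised the antiviral GTPase Mx1, the ubiquitin-like modifier Isg15 and its protease Usp18, the RNA-binding Ifit1 and Ifit3, the 2'-5' oligoadenylate synthetase family members Oas1a, Oas1b, Oas1i and Oasl, and the interferon regulator Irf7. Cmpk2, Bst2, Ifi27l2b, Ifi44l, Igtp and Trex1 completed them.

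Ifit1, whose product binds viral RNA lacking host cap marks, read 9.17 on Ad.GFP, 7.41 on the ICG-001 vehicle and 7.84 on the FJ9 vehicle. It rose by 1.55 ± 0.28 (SE) or 2.92-fold (limma adjusted p = 0.048). Oas1a read 9.54, 7.67 and 8.29, and rose by 1.55 ± 0.28 (SE; limma adjusted p = 0.0496). Both lay above each vehicle by more than the gap between the vehicles. Oas1a, Oas1b and Oas1i are close relatives, and their probe sets may share signal.

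Other members had a wider gap between the vehicles. Isg15 read 10.78 on Ad.GFP, 8.73 on the ICG-001 vehicle and 9.63 on the FJ9 vehicle (limma adjusted p = 0.0524). Mx1 read 10.38, 8.66 and 9.76 (limma adjusted p = 0.178). Mx2, a GTPase of the same family, read 10.99, 8.32 and 10.47 (limma adjusted p = 0.259), so that the vehicles lay 2.15 apart and the FJ9 vehicle stood within 0.52 of Ad.GFP. By contrast Oasl read 8.52 against 7.06 and 7.07, with the vehicles at almost the same level (limma adjusted p = 0.0734). The only member below the vehicle mean was the exonuclease gene Isg20, at 7.13 against 7.32 and 7.73.

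The FJ9 vehicle read above the ICG-001 vehicle over this list, by a median of 0.41. Against the ICG-001 vehicle alone, the median of Ad.GFP was 0.80 and 27 members lay at least 1.5-fold higher. Against the FJ9 vehicle alone it was 0.45, with 16 members. Of all 10025 genes, 674 lay at least 1.5-fold above the ICG-001 vehicle and 777 above the FJ9 vehicle. The Ad.DKK-1 array, also infected with adenovirus on the same schedule, had a median of -0.62 against the vehicle mean. Its Mx1 read 7.08 and its Isg15 8.06, below all 3 arrays of the comparison, whereas its Ifit1 at 8.27 and Ifi44l at 8.96 lay between Ad.GFP and the vehicles. These comparisons share the vehicle arrays.

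**Figure D2:**
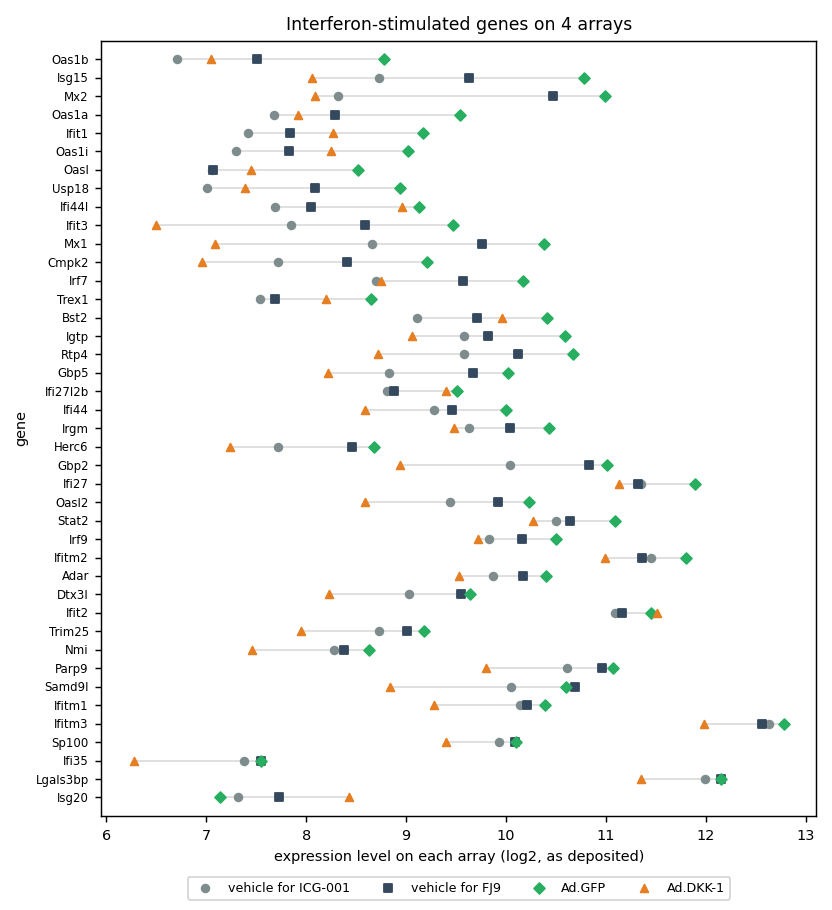
Level (log2, x axis) of each of 41 interferon-stimulated genes on the vehicle arrays (grey circles, dark squares), Ad.GFP (green diamonds) and Ad.DKK-1 (orange triangles), ordered by the difference of Ad.GFP from the vehicle mean. Green diamonds stand right of both vehicles for most genes, 16 of them by at least 1.5-fold, while the Ad.DKK-1 median lies 0.62 below the vehicle mean.

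Genes upstream of the interferon response differed less. Of 21 nucleic acid sensors and signalling genes, 1 lay at least 1.5-fold above both vehicles, Dhx58, a regulator of RNA sensing, which read 8.37 against 6.90 and 7.60. The list median was 0.11, and 3.44% of all genes lay above both vehicles. Interferon beta itself, Ifnb1, failed the level filter, with levels of 5.72, 5.76 and 5.25. Tlr2, a receptor for microbial lipoproteins, read 8.78, 6.88 and 8.32, again with the FJ9 vehicle close to Ad.GFP. Irf3, a factor that switches on interferon genes once phosphorylated, read 8.40 on Ad.GFP, below the vehicles at 8.88 and 9.20 (limma adjusted p = 0.234).

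Class I antigen processing genes, which load peptides for display to T cells and are themselves interferon targets, had 5 of 18 members above both vehicles, against 3.44% of all genes, and 0 below. These were the peptide transporter gene Tap1, the immunoproteasome subunits Psmb8, Psmb9 and Psmb10, and the class I gene RT1-N3. Tap1 read 10.09 on Ad.GFP, 9.08 on the ICG-001 vehicle and 9.32 on the FJ9 vehicle (limma adjusted p = 0.0768). RT1-N3 read 8.68, 7.53 and 7.58 (limma adjusted p = 0.105); RT1 genes are close relatives and may share probe sequence. No member of this list passed limma, and its median was 0.34. Uba7, the enzyme that activates Isg15, was among the 20 highest genes, at 9.12 against 7.05 and 7.91, and the interferon-inducible Slfn2 rose by 1.05 ± 0.15 (SE; limma adjusted p = 0.0181).

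Inflammatory genes gave no common direction. Of 27 chemokines, cytokines and NF-kB targets, 2 were above both vehicles and 3 below, against 3.44% and 3.63% of all genes. Above were Il34 and Vcam1, and below were Lif, Ptgs2 and Lcn2. Vcam1, the leukocyte adhesion molecule, read 10.80 on Ad.GFP, 8.90 on the ICG-001 vehicle and 9.56 on the FJ9 vehicle, and rose by 1.57 ± 0.25 (SE; limma adjusted p = 0.0265). The iron-binding Lcn2 read 9.43, 10.89 and 10.46, and fell by 1.24 ± 0.19 (SE; limma adjusted p = 0.022). Ptgs2, the inducible cyclooxygenase, read 8.47, 10.22 and 9.36 (limma adjusted p = 0.0949). The chemokine gene Cxcl1 read 9.52, 6.92 and 8.99 and Ccl7 9.88, 8.04 and 9.82: for both, the FJ9 vehicle lay nearer to Ad.GFP than to the ICG-001 vehicle. The list median was 0.39 against the ICG-001 vehicle and -0.02 against the FJ9 vehicle.

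Most macrophage genes were low on these arrays, with 14 of 20 under the filter. The 6 that passed had a median difference of 0.36, with 0.53 against the ICG-001 vehicle and -0.01 against the FJ9 vehicle. Of these, 4 lay above the vehicle mean and 2 below. Fcer1g, an Fc receptor subunit of myeloid cells, was the 1 member past 1.5-fold from both vehicles, at 8.12 against 7.04 and 7.40. Over all genes, 3.44% lay above both vehicles and 3.63% below both. Cd14 read 11.63 against 11.12 and 11.16, Lyz2 8.19 against 7.16 and 8.14, Cd68 8.37 against 7.83 and 8.44, and Mrc1 6.60 against 6.94 and 7.16. Adgre1, the macrophage F4/80 gene, failed the filter on its mean over all arrays, yet read 7.03 on Ad.GFP against 4.84 and 4.96. Clec4f, a Kupffer cell marker, read 4.99 against 5.94 and 5.93, and the leukocyte gene Ptprc 6.68 against 6.19 and 6.72. The part of macrophage RNA in the interferon-stimulated and chemokine values was not tested.

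Genes of viral entry showed little difference. Cxadr, the coxsackie and adenovirus receptor, read 8.30 on Ad.GFP, 8.34 on the ICG-001 vehicle and 8.87 on the FJ9 vehicle. Of 16 entry genes past the filter, 1 was below both vehicles and 0 were above, against 3.63% and 3.44% of all genes. The 1 below was the dynein heavy chain gene Dync1h1, at 10.42 against 11.30 and 11.05. The list median of -0.08 turned to 0.03 after centring the arrays and to 0.01 against the FJ9 vehicle alone.

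DNA replication genes stood higher on the Ad.GFP array. Of 36 members past the filter, 33 lay above the vehicle mean, and 6 were at least 1.5-fold above both vehicles, against 3.44% of all genes. These were the G1 to S cyclins Ccne1 and Ccne2, the helicase subunit Mcm7, the single-strand binding subunit Rpa2, the histone chaperone subunit Chaf1b and the E2F family repressor E2f8. No replication gene passed limma. The median difference was 0.41, against 0.02 over all genes, and the FJ9 vehicle minus the ICG-001 vehicle gave -0.16.

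Ccne2 read 7.15 on Ad.GFP, 6.45 on the ICG-001 vehicle, 5.88 on the FJ9 vehicle and 8.03 on Ad.DKK-1. Mcm7 read 9.12, 8.22, 8.48 and 10.10 on the same arrays. E2f8 read 8.94, 8.10, 7.77 and 5.87. Ccne2 and Mcm7 were thus higher on both infected arrays than on either vehicle, and E2f8 was the lowest of the 4 on Ad.DKK-1. On the uninfected ICG-001 and FJ9 arrays, Ccne2 read 5.71 and 5.60, Mcm7 9.03 and 10.12, and E2f8 4.99 and 6.03. Mcm7 was thus above both vehicles on those arrays too, and E2f8 below both. The replication list as a whole had a median of 0.67 on Ad.DKK-1 against the vehicle mean. The count of members past both vehicles was 1 when the lowest 50% of genes were left out and fewer genes were tested. Against the FJ9 vehicle alone, 14 members lay 1.5-fold higher, as did 777 of all 10025 genes.

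Mitosis genes did not share that direction. Of 49 measured, 24 passed the filter, 0 were above both vehicles and 1 was below, against 3.44% and 3.63% of all genes. The 1 below was Mybl2, a factor for late cell cycle genes, which read 5.96 against 6.91 and 6.68. The median was -0.17, with the vehicles 0.29 apart, and 3 of 24 lay above the vehicle mean. Top2a read 6.94, 7.90 and 7.09, and the spindle gene Hmmr 6.08, 6.94 and 6.64. Among 13 D cyclins, kinases and inhibitors, none reached 1.5-fold from both vehicles. Ccnd1 read 12.09, 12.12 and 12.13, and the p53 target Cdkn1a 12.08, 11.61 and 11.89. Of 21 p53 targets, 0 were past both vehicles in either direction, at a median of -0.03 that turned to 0.08 after centring.

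**Figure D3:**
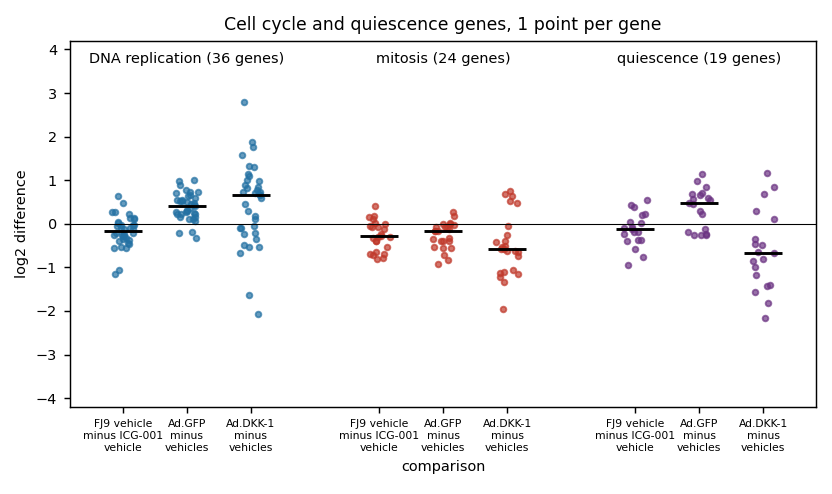
Log2 differences (y axis) of single genes for the FJ9 vehicle minus the ICG-001 vehicle, Ad.GFP minus the vehicle mean and Ad.DKK-1 minus the vehicle mean, with a bar at each median. For replication the medians are -0.16, 0.41 and 0.67, for mitosis -0.29, -0.17 and -0.58, and for quiescence genes -0.12, 0.48 and -0.68; the comparisons share the vehicle arrays.

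Early response genes were lower on the Ad.GFP array. Of 37 members past the filter, 10 lay at least 1.5-fold below both vehicles, against 3.63% of all genes, and 1 above. The median difference was -0.43, and 7 of 37 lay above the vehicle mean. The vehicles differed by a median of 0.04 here. By limma, Myc fell and Gem rose.

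Myc, the growth regulator, read 8.95 on Ad.GFP, 9.99 on the ICG-001 vehicle and 9.97 on the FJ9 vehicle, with 9.97 on Ad.DKK-1. It fell by 1.03 ± 0.17 (SE), a 2.04-fold difference (limma adjusted p = 0.0303). Gem, a small GTPase, read 10.48 against 9.57 and 9.08, with 9.22 on Ad.DKK-1, and rose by 1.16 ± 0.21 (SE; limma adjusted p = 0.0496). For both genes Ad.DKK-1 stood near the vehicles.

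The other lower members included feedback regulators of the ERK pathway (Dusp1, Dusp4, Dusp5, Spry4) and the zinc finger factors Egr1 and Egr3. Dusp4 read 5.69 on Ad.GFP against 6.74 and 7.26, and Dusp1 7.90 against 9.12 and 8.83 (limma adjusted p = 0.186 and 0.0878). Egr3 read 6.56 against 7.79 and 7.55, and Egr1 8.28 against 9.50 and 9.04. The EGF receptor ligand gene Hbegf read 6.23 against 7.17 and 7.42 (limma adjusted p = 0.206). The orphan receptor gene Nr4a3 and the AP-1 gene Fosl1 were also among the 10. All of them apart from Myc, Egr1 and Dusp1 lay under 7 on Ad.GFP, in the range where lower values were frequent over all genes, and the count was 3 when the lowest 50% of genes were removed. Ad.DKK-1 had a list median of -0.15, with Egr1 at 6.97 below Ad.GFP and Hbegf at 8.45 above both vehicles.

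Targets of YAP and the CCN family held the most limma calls of the 33 lists. Of 24 genes, 6 were at least 1.5-fold below both vehicles and 1 above; 5 of the 6 fell by limma and the 1 rose. Over all genes, 3.63% were below both, 3.44% above both and 0.589% called by limma in either direction. All 24 passed the level filter. The median difference was -0.39 against the vehicle mean, -0.20 against the ICG-001 vehicle and -0.33 against the FJ9 vehicle, and the vehicles lay 0.07 apart.

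Ankrd1, a nuclear cofactor induced by stretch, read 9.62 on Ad.GFP, 10.99 on the ICG-001 vehicle and 11.51 on the FJ9 vehicle, and fell by 1.63 ± 0.20 (SE; limma adjusted p = 0.0123). Edn1, which encodes the vasoconstrictor endothelin-1, read 8.71, 10.22 and 10.32, and fell by 1.56 ± 0.17 (SE), or 2.95-fold (limma adjusted p = 0.0051). On Ad.DKK-1, Ankrd1 read 10.24 and Edn1 10.33. Edn1 on Ad.DKK-1 was thus level with the vehicles.

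The matricellular genes followed with smaller differences and little spread between the vehicles. Ccn1 read 11.00, 11.81 and 11.88, and fell by 0.85 ± 0.12 (SE; limma adjusted p = 0.0152). Ccn2, the connective tissue growth factor, read 11.61, 12.26 and 12.26, and fell by 0.65 ± 0.11 (SE), or 1.57-fold (limma adjusted p = 0.0276). Tgfb2, a TGF-beta ligand, fell by 0.72 ± 0.13 (SE; limma adjusted p = 0.0496). Amotl2, a YAP-binding protein gene, read 9.74, 10.38 and 10.64 without a limma call (adjusted p = 0.0802). Yap1 itself and its partner Wwtr1 were within 1.5-fold of both vehicles. Centring the arrays on their medians left 3 of the 6 past 1.5-fold from both vehicles.

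Igfbp3, which binds insulin-like growth factors, was the member that rose. It read 11.88 on Ad.GFP, 10.54 on the ICG-001 vehicle, 10.45 on the FJ9 vehicle and 9.71 on Ad.DKK-1. The difference was 1.38 ± 0.13 (SE), or 2.61-fold (limma adjusted p = 0.00404), the smallest adjusted p of the fit, which Mmp3, Or55b10 and Or55b4 shared. Ad.GFP was thus the highest of these 4 arrays and Ad.DKK-1 the lowest.

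**Figure D4:**
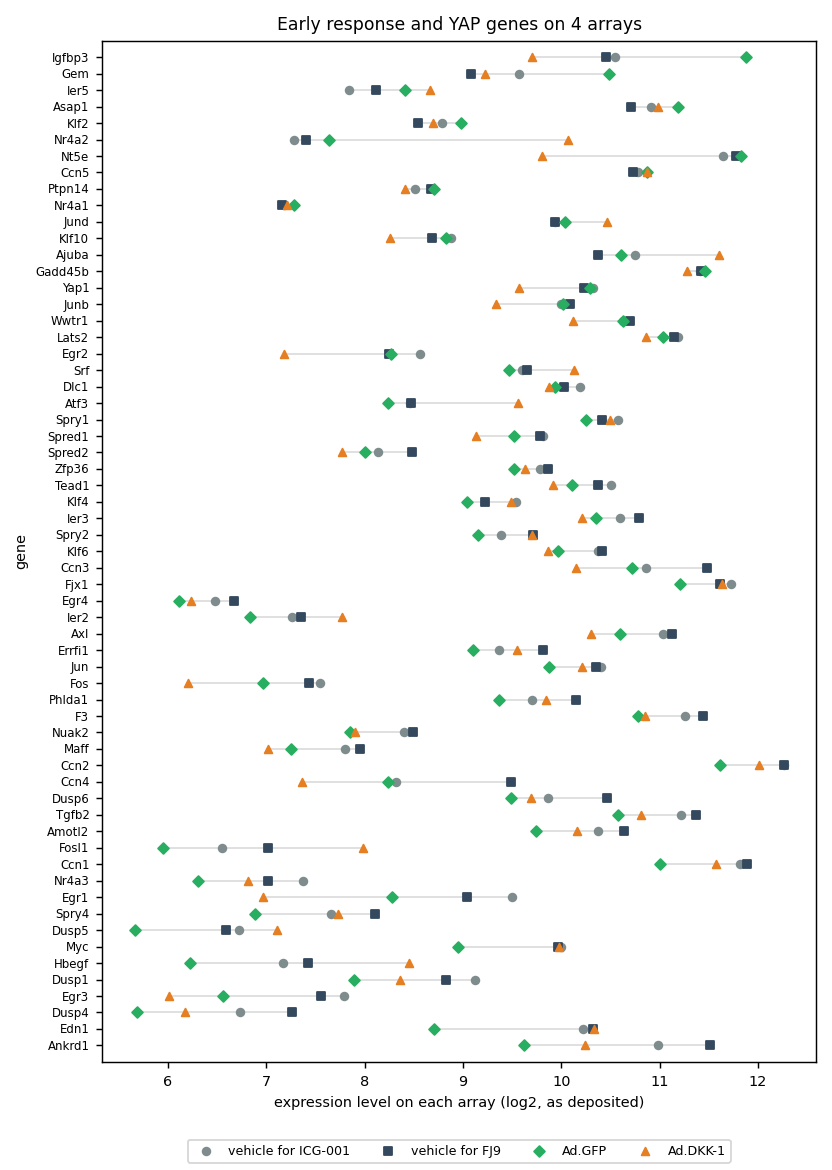
Level (log2, x axis) of the early response and YAP or CCN genes past the level filter on the vehicle arrays, Ad.GFP and Ad.DKK-1, ordered by the difference of Ad.GFP from the vehicle mean. Ad.GFP (green) is the leftmost point for Ankrd1, Edn1, Myc and Dusp4 at the bottom and the rightmost for Igfbp3 and Gem at the top.

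Of 26 contractile and myofibroblast genes, 1 lay below both vehicles, the nonmuscle myosin heavy chain gene Myh10, which fell by 0.71 ± 0.12 (SE; limma adjusted p = 0.0411), and 0 were above. That count is near the 3.63% of all genes below both vehicles. The list median was -0.20, and 4 of 26 were above the vehicle mean. Tln1, which links integrins to actin, fell by 0.69 ± 0.12 (SE; limma adjusted p = 0.0411). Smooth muscle Tagln read 12.66, 12.76 and 12.77, and Myh11 read 6.89, 7.26 and 8.03. Of 23 integrin, adhesion and laminin genes, 3 were below both vehicles, Itga2, Lama5 and Cd44, against 3.63% of all genes, and 0 above. Signs were mixed, with 9 above the vehicle mean and 14 below. The collagen-binding integrin subunit Itga2 read 8.45, 9.87 and 10.05, and fell by 1.51 ± 0.18 (SE; limma adjusted p = 0.0123).

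Matrix genes held calls in both directions, where 3.44% of all genes lay above both vehicles and 3.63% below both. Col1a1, the main fibrillar collagen gene, read 12.98, 12.96 and 12.80. Of 17 collagens, 2 were below both vehicles: Col12a1, which fell by 1.07 ± 0.11 (SE; limma adjusted p = 0.0051), and Col5a3, at 7.27 against 8.59 and 8.20. The elastic fibre gene Eln read 12.12, 11.24 and 10.75, and rose by 1.13 ± 0.18 (SE; limma adjusted p = 0.0265), while fibronectin, Fn1, read 11.96, 12.68 and 12.76, and fell by 0.76 ± 0.10 (SE; limma adjusted p = 0.0149). Over 34 matrix and crosslinking genes the median was -0.003, and its sign turned under 6 of the alternatives.

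Matrix proteases differed gene by gene. Mmp3, stromelysin, read 8.03 on Ad.GFP, 9.99 and 9.92 on the vehicles and 7.33 on Ad.DKK-1, and fell by 1.93 ± 0.18 (SE), or 3.81-fold (limma adjusted p = 0.00404). Both infected arrays were well below both vehicles. Mmp11 read 8.28 against 7.15 and 7.29 (limma adjusted p = 0.16), and Pappa, a protease of insulin-like growth factor binding proteins, 6.08 against 6.86 and 6.77. These 3 were the members of 30 past both vehicles, 1 above and 2 below, against 3.44% and 3.63% of all genes. The list median was 0.24.

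Among growth factors, Stc2, an inhibitor of Pappa, read 6.35 on Ad.GFP, 8.25 and 8.28 on the vehicles and 9.51 on Ad.DKK-1. It fell by 1.91 ± 0.29 (SE; limma adjusted p = 0.022), and the infected arrays thus lay on opposite sides of the vehicles. Inhbb, an activin subunit gene, read 6.89, 8.65 and 8.73 and 5.80 on Ad.DKK-1, and fell by 1.80 ± 0.26 (SE; limma adjusted p = 0.0168). Over all genes, 3.44% were above both vehicles and 3.63% below both. Of 36 genes of the insulin-like growth factor axis and other growth factors, 2 were above both vehicles and 5 below. Igfbp5 had the largest upward difference of that list, at 10.49 against 9.62 and 8.003, with a wide gap between the vehicles (limma adjusted p = 0.163). Of 32 TGF-beta pathway genes, 3 were below both vehicles, Tgfb2, Inhba and Inhbb, and 0 above. Id3, a target of bone morphogenetic proteins, read 10.36 against 9.21 and 9.79.

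Several genes linked to the quiescent, fat-storing state stood higher. Of 31 measured, 19 passed the filter, with 4 at least 1.5-fold above both vehicles, against 3.44% of all genes, and 0 below. Of the 19, 13 lay above the vehicle mean and 6 below, and the median was 0.48 against vehicles that lay 0.12 apart. G0s2, an inhibitor of lipolysis, read 9.71 on Ad.GFP, 8.54 and 8.58 on the vehicles and 6.75 on Ad.DKK-1, and rose by 1.15 ± 0.20 (SE; limma adjusted p = 0.0434). The adipokine gene Rarres2 read 10.84 against 10.09 and 9.91 (limma adjusted p = 0.0508), the lipid droplet coat gene Plin2 10.33 against 9.69 and 9.58 (adjusted p = 0.103), and Nr1h3, the LXR alpha receptor, 7.08 against 6.41 and 6.43. On Ad.DKK-1 the list had a median of -0.68. The 12 members that failed the filter included Pparg, at 4.93 against 4.66 and 5.14, and Gfap, at 6.27 against 6.17 and 5.35; with them the median was 0.28.

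Of 24 cholesterol genes, 3 were above both vehicles, against 3.44% of all genes: the sterol exporters Abcg1 and Abca1, and Mylip, which degrades the LDL receptor. Abcg1 read 9.16 against 7.91 and 8.06 (limma adjusted p = 0.0734), Abca1 8.02 against 6.99 and 7.10, and Mylip 9.85 against 8.94 and 9.14. No cholesterol gene was below both vehicles, at a list median of -0.14 that turned to 0.10 against the FJ9 vehicle alone. Idi1, a synthesis enzyme, read 11.11 against 11.87 and 11.57. Scd, the stearoyl-CoA desaturase, read 9.65 on Ad.GFP, between 11.09 on the ICG-001 vehicle and 8.26 on the FJ9 vehicle, and 0 of 20 fatty acid genes were past both.

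Wnt pathway genes are of note because the other treatments of the series act against Wnt signalling. Of 40 past the filter, 1 was above both vehicles and 3 below, against 3.44% and 3.63% of all genes. The 1 above was Porcn, which acylates Wnt ligands, at 8.74 against 7.80 and 7.87. Below both were the secreted antagonist Sfrp1, at 9.02 against 10.03 and 9.84 (limma adjusted p = 0.0588), the ligand Wnt2, at 6.14 against 7.29 and 6.91, and Cd44. Axin2, the feedback target, read 9.08, 8.94 and 8.77. The list median was 0.09 and turned to -0.03 without the level filter.

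Mitochondrial respiratory chain genes stood slightly higher. Of 51 members, 46 lay above the vehicle mean, at a median of 0.26 against 0.02 over all genes, and the vehicles differed by -0.06. None was 1.5-fold from both vehicles and none passed limma. The farthest was the complex I gene Ndufs7, at 9.83 against 9.29 and 9.10. Lysosome and autophagy genes had 33 of 37 above the vehicle mean at a median of 0.17, with 0 past both vehicles. Cytosolic ribosomal proteins had a median of 0.03 and ribosome biogenesis genes -0.04, with 0 past both in either list. The latter median turned to 0.07 after centring.

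Stress and neighbouring lists differed in their counts. Over all genes, 3.44% lay above both vehicles and 3.63% below both. None of 25 endoplasmic reticulum folding genes and none of 18 heat shock genes lay 1.5-fold from both vehicles, at medians of -0.08 and -0.14; the former turned to 0.03 after centring. Of 42 genes of the integrated stress response and amino acid supply, 3 were below both vehicles, Cth, Slc7a11 and Stc2, and 0 above, where Ad.DKK-1 had a median of 0.88. Of 41 oxidative and xenobiotic stress genes, 3 were above both vehicles and 4 below both, more in each direction than the share over all genes. Mt1, a metallothionein, read 8.64 against 6.18 and 7.26 (limma adjusted p = 0.0931), and the dioxin-inducible Cyp1b1 fell by 0.96 ± 0.14 (SE; limma adjusted p = 0.0175). Of 34 glycolysis genes 2 were below both vehicles, Car9 and Pfkp, and Pfkp fell by 0.80 ± 0.15 (SE; limma adjusted p = 0.0496). Of 28 apoptosis genes 2 were above both, Bcl2l11 and the TNF receptor gene Tnfrsf1b, which rose by 0.82 ± 0.15 (SE; limma adjusted p = 0.0496); the list median of 0.16 was -0.03 against the FJ9 vehicle alone. Of 15 complement and acute phase genes, 1 was above both vehicles, C7, and 2 below, Cd55 and Hpx.

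**Figure D5:**
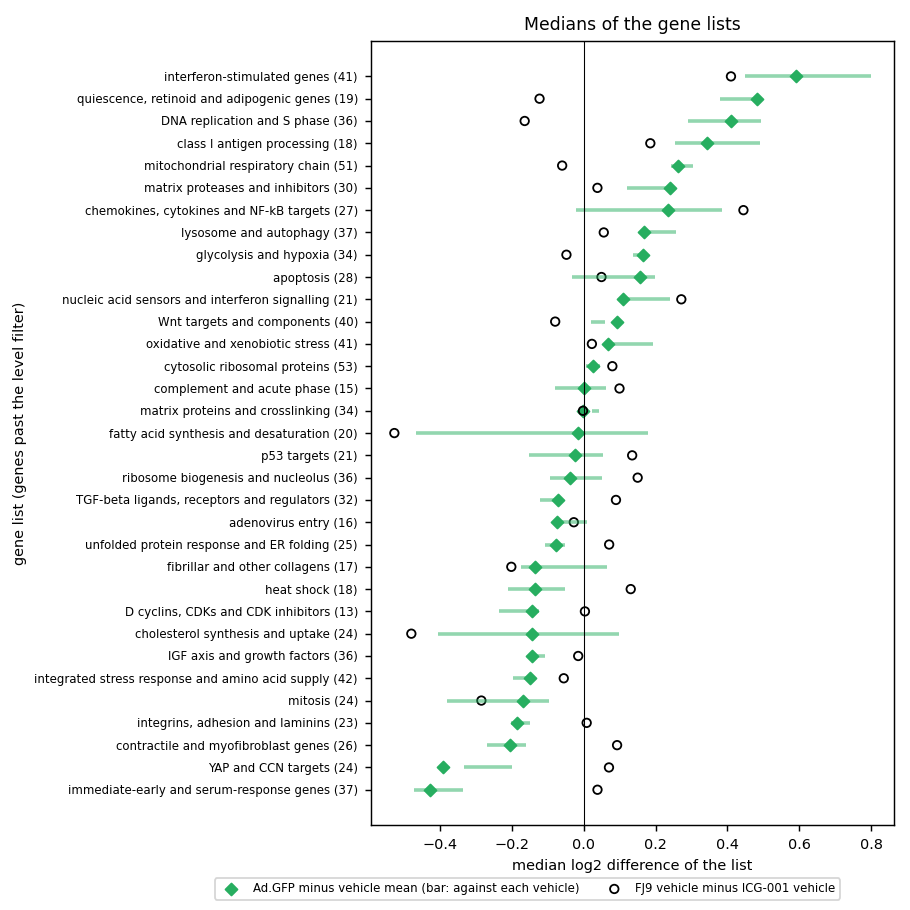
Median log2 difference (x axis) of 33 gene lists for Ad.GFP minus the vehicle mean (green diamonds), with a bar between the medians against each vehicle alone, and for the FJ9 vehicle minus the ICG-001 vehicle (open circles). Interferon-stimulated genes at the top have a median of 0.59 with a vehicle gap of 0.41, and early response genes at the bottom have -0.43 with a gap of 0.04.

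The 20 highest genes by the smaller difference from the vehicles, some of them list members given above, were headed by Atf7ip2, a partner of a chromatin-silencing factor. It read 8.22 on Ad.GFP, 6.15 and 6.42 on the vehicles and 7.96 on Ad.DKK-1, and rose by 1.93 ± 0.35 (SE), or 3.82-fold (limma adjusted p = 0.0491). Prima1, an anchor of acetylcholinesterase, read 9.42, 7.79 and 7.67, and rose by 1.69 ± 0.24 (SE; limma adjusted p = 0.0177). On both infected arrays Atf7ip2 and Prima1 were above the vehicles, with Prima1 at 8.28 on Ad.DKK-1.

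Kit, the stem cell factor receptor, read 8.91, 7.14 and 7.49, and rose by 1.59 ± 0.29 (SE; limma adjusted p = 0.0496), with 6.90 on Ad.DKK-1. The pericyte gene Rgs5 read 10.41, 8.96 and 9.17, and rose by 1.34 ± 0.18 (SE; limma adjusted p = 0.0152), with 7.29 on Ad.DKK-1. For Kit and Rgs5, unlike Atf7ip2, the Ad.DKK-1 array lay below both vehicles. Adh1c, an alcohol dehydrogenase, read 8.39 against 6.97 and 6.53, and the epoxide hydrolase gene Ephx2 8.08 against 6.80 and 6.59, both without a limma call.

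The 20 lowest genes were headed by the odorant receptor gene Or55b10, at 6.47 on Ad.GFP, 8.94 and 9.13 on the vehicles and 9.18 on Ad.DKK-1, which fell by 2.56 ± 0.26 (SE; limma adjusted p = 0.00404). Its relative Or55b4 read 6.93, 9.26 and 9.25 with 6.35 on Ad.DKK-1, and fell by 2.33 ± 0.23 (SE; limma adjusted p = 0.00404). Such genes belong to a large family of close relatives, whose signals may be shared. Nkg7, a granule gene of cytotoxic lymphocytes, read 6.07, 8.55 and 8.11, and fell by 2.26 ± 0.32 (SE; limma adjusted p = 0.0158). Of 18 lymphocyte and NK cell markers measured, 5 passed the filter, at a median difference of -0.64. Nkg7 and Gzmb were the 2 below both vehicles, against 3.63% of all genes, and 0 were above. Gzmb read 6.70, 7.36 and 7.35, Zap70 7.13, 8.10 and 7.43, and Cd79b 7.47, 8.31 and 7.74. Cd3e, at 6.93, 6.79 and 7.04, was the 1 member above the vehicle mean. Esam, an endothelial adhesion gene, read 7.79, 9.40 and 9.25, and fell by 1.54 ± 0.21 (SE; limma adjusted p = 0.0158), while Sema7a, a membrane semaphorin, read 7.76, 9.16 and 9.87, and fell by 1.75 ± 0.28 (SE; limma adjusted p = 0.0267). Krt83, Pde11a, Hapln4, Syt13, Cst12 and Dusp13b also fell by limma.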

How the data were processed

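Total RNA of 6 pools of primary rat hepatic stellate cells was hybridised to Affymetrix whole-transcript arrays, 1 array per group. The authors deposited log2 values of 26988 probe sets obtained by RMA. Affymetrix Expression Console is the software that the submitters' processing notes name. Versions, annotation release and genome build: not given in the sources used here. Between arrays, the medians ran from 7.01 to 7.28. Values were used as deposited, with no detection calls, and the number of arrays limits the precision.

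The platform annotation gave 1 gene symbol for 15092 probe sets and several for 323, and 11573 had none. Entrez identifiers of 15062 matched the RefSeq table of GRCr8, used for names alone, and 0 symbols changed. Of 14322 genes, 497 had several probe sets, and the highest mean over 6 arrays decided. The lowest 30% of genes by mean were left out, which kept 10025.

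The difference was the Ad.GFP value minus the vehicle mean. Called genes lay at least 1.5-fold (0.585 in log2) from both vehicle arrays. limma 3.58.1 in R 4.3.3 (lmFit, eBayes with trend, two-sided, Benjamini-Hochberg) compared Ad.GFP with the vehicles as a group of 2. A run on simulated data, whose outcome is not given here, cannot show whether Ad.GFP arrays would vary as the vehicle pools do. The only spread behind the p-values is that between these pools, and it was shared over genes of similar level. The prior held 8.99 degrees of freedom and each gene 1. Each SE and p-value thus rests mostly on the trend over all genes, not on the gap of that gene alone. The labels do not name separate cultures within a pool.

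Named genes were the 20 highest and 20 lowest by the smaller difference from the vehicles, up to 5 members of each list by size of difference, and Cxadr, Mx1, Isg15, Ifnb1, Ccnd1, Mki67, Col1a1, Acta2, Axin2, Scd and Cdkn1a, of which Mki67 and Acta2 had no probe set with a single symbol. A further gene of that rule is not reported here. Other genes in the text were chosen after their values were seen. The comparison, the 33 pathway lists and the 8 marker lists were chosen with earlier results of these data known. The lists described at length were picked after the medians of all 33 had been seen. Alternatives were array centring, quantile and cyclic loess normalization, other filters, the mean of probe sets, a 2-fold threshold, each vehicle alone and other limma priors. Promoter and protein sequences were not used here.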

Additional observations from a re-analysis of the deposited data

Results flagged for a closer look

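Probe sets without a single gene symbol lie outside every comparison above. Of 11896 such probe sets, 1306 were at least 1.5-fold below both vehicle arrays on Ad.GFP and 288 were at least 1.5-fold above both. They were singled out as a signal in data that the gene comparison does not use. No level filter was applied to them, and without that filter the named genes also gave more lower values, with 959 below both vehicles. Their identity, and the part of the low-end offset of the Ad.GFP array in these counts, were not tested.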

How the results depend on the processing

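The medians of the 6 lists described at length, which were not tested, kept their sign under every alternative run. Of 107 named genes past both vehicles, none turned sign and 4 came under 1.5-fold from the vehicle mean in some alternative. No paired analysis was possible because each group has 1 array and the labels give no shared replicate number. Where values moved, the cause was not tested, except that stricter filters test fewer genes.

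Genes 1.5-fold above the vehicle mean numbered 1026 after centring, 368 with the lowest 50% of genes left out and 99 at 2-fold; genes below numbered 406 after centring, 429 after cyclic loess, 1657 without the filter, 243 with the lowest 50% left out and 105 at 2-fold. Genes above both vehicles numbered 589 after centring, 198 with the lowest 50% left out and 43 at 2-fold, and genes below both 959 without the filter, 137 with the lowest 50% left out and 65 at 2-fold.

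The limma calls were least stable. Higher calls numbered 99 after centring, 148 after quantile normalization, 394 after cyclic loess, 50 without the filter, 1 with the lowest 50% left out, 0 without the trend and 63 with a robust prior. Lower calls numbered 136 after quantile normalization, 242 after cyclic loess, 87 without the filter, 5 with the lowest 50% left out, 0 without the trend and 85 with a robust prior. Without the trend, 1310 genes had an unadjusted limma p under 0.05, against 1585 with it. Of the 59 calls, 59 were also made after quantile normalization and after cyclic loess, 57 with the robust prior, 47 after centring and 6 with the lowest 50% left out.

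List members past 1.5-fold were counted under alternatives chosen after seeing the data. The counts over all genes moved as well. Above both vehicles they were 345 in the main run, 589 after centring and 198 with the lowest 50% left out. Below both they were 364, 245 and 137. Above a single vehicle they were 674 for ICG-001 and 777 for FJ9, and 664 genes lay below the FJ9 vehicle. Whether list counts moved more than these was not tested. Interferon-stimulated members higher numbered 8 with the lowest 50% left out and 27 against the ICG-001 vehicle alone. Replication members higher numbered 10 after centring, 1 with the lowest 50% left out and 14 against the FJ9 vehicle alone. Early response members lower numbered 3 with the lowest 50% left out. YAP and CCN members lower numbered 3 after centring and 10 against the FJ9 vehicle alone. Quiescence members higher numbered 7 after centring and 8 against the FJ9 vehicle alone.

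The replication median was 0.27 with the lowest 50% left out and 0.29 against the ICG-001 vehicle. The early response median was -0.32 after centring, -0.37 after quantile normalization, -0.36 after cyclic loess, -0.30 with the lowest 50% left out, -0.34 against the ICG-001 vehicle and -0.47 against the FJ9 vehicle. The YAP and CCN median was -0.29 after centring, -0.20 against the ICG-001 vehicle and -0.33 against the FJ9 vehicle. The quiescence median was 0.59 after centring, 0.28 without the filter and 0.38 against the FJ9 vehicle. The respiratory chain median was 0.37 after centring.

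Some medians turned sign. Adenovirus entry became 0.0320 after centring and 0.0087 against the FJ9 vehicle, the unfolded protein response list 0.0307 after centring, Wnt genes -0.0290 without the filter and apoptosis genes -0.0326 against the FJ9 vehicle. Matrix proteins became 0.10 after centring, 0.0049 after quantile normalization, 0.0592 after cyclic loess, 0.0354 with the lowest 50% left out, 0.0241 against the ICG-001 vehicle and 0.0424 against the FJ9 vehicle. Signs also turned in lists whose median was smaller than the gap between the vehicles. Against the FJ9 vehicle, cholesterol genes became 0.0985, collagens 0.0638, fatty acid genes 0.1791, chemokines -0.0209 and complement genes -0.0805. After centring, fatty acid genes became 0.0905, p53 targets 0.0819, TGF-beta genes 0.0352 and ribosome biogenesis genes 0.0696. Other settings also turned the p53, ribosome biogenesis and complement medians.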
